A study of Caenorhabditis elegans with 32 samples.

Results

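The genes described here are 10 components of the contractile apparatus of body wall muscle in C. elegans: the myosin heavy chains unc-54 and myo-3, paramyosin (unc-15), the regulatory myosin light chains mlc-1 and mlc-2, the actin act-4, tropomyosin (lev-11), and the troponins mup-2 (T), unc-27 (I) and pat-10 (C). They were chosen by gene name, with earlier results of these data known. All 10 were found among the 46726 genes of the count table and had enough counts to be tested in every comparison. RNA was sequenced from O2-sensing neurons and from whole worms, at day 7 and day 1 of adulthood, after culture in 21% or 7% O2, with 4 biological replicates in each of the 8 groups. All animals were hermaphrodites of strain KL123, which carries npr-1(ad609) X and the integrated transgene iaIs25, in which the gcy-37 promoter drives GFP (Pgcy-37::GFP) beside unc-119(+), and all were fed mex-3 RNAi bacteria from the third larval stage, the day 1 adults until collection and the day 7 adults for the first days of adulthood before a return to OP50. The neuron samples are GFP-positive cells sorted from dissociated worms. The promoter marks URX, AQR and PQR, with weaker and occasional GFP in AVM and ASI. For the whole-worm samples a small volume of the dissociated worms was set aside ahead of sorting, and every sample came from a large pool of animals.

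In a nematode body wall muscle cell, bipolar thick filaments of myosin wound around a paramyosin core slide past thin filaments of actin, and the force passes through dense bodies to the cuticle. MHC A, made by myo-3, occupies the middle of each thick filament and starts its assembly, while MHC B, made by unc-54, fills the arms and is the more abundant heavy chain. Tropomyosin and the 3 troponin subunits lie along the actin filament and let Ca2+ switch contraction on. Actin is also part of the cytoskeleton of other cell types.

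In the annotation of the WBcel235 build, the genes lie on chromosome I (unc-54 at 14855901-14863482, unc-15 at 7376604-7383197, lev-11 at 14621169-14631094, pat-10 at 5018783-5020358), on chromosome V (myo-3 at 12226817-12234343) and on chromosome X (unc-27 at 8789456-8790621, mup-2 at 6408471-6410227, act-4 at 4960621-4964413, mlc-1 at 17459210-17460778, mlc-2 at 17455792-17456586). The light chain genes are neighbours of near-identical coding sequence, and act-4 closely resembles act-1, act-2 and act-3, so fragments could be split or lost between these copies and their separate values are uncertain. The exons of mlc-2 overlap those of C36E6.2, on the opposite strand, over 12% of their length, and fragments were counted without strand. Many GFP transgenes of C. elegans carry the unc-54 3′ UTR, and the sources used here do not say whether iaIs25 does, so unc-54 counts in sorted cells, and every ratio and change made from them, could include transgene fragments. The other members shared no exon sequence with another gene beyond a single base.

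Library totals lay between 5365596 and 30666288 counts. A noncoding gene inside a ribosomal RNA gene, F31C3.14, took 5.33% to 53.8% of them. The summed level of 10 pan-neuronal genes in the neuron samples had a median of 4382 CPM (counts scaled to the library size with TMM factors) at day 7 in 21% O2 and 2733 CPM at day 7 in 7% O2, and at day 1 of 33188 CPM in 21% O2 and 23223 CPM in 7% O2. In whole worms that median lay between 433 and 593 CPM. The 7 genes of O2-sensing neurons summed to medians of 719 and 449 CPM in day 7 neurons and of 7503 and 6271 CPM in day 1 neurons (21% and 7% O2), against 9.003 to 18.1 CPM in whole worms. Touch neuron genes, a list that bears on AVM, summed to medians of 930 and 449 CPM in day 7 neurons and of 9217 and 9482 CPM in day 1 neurons. Markers of the sorted cells thus exceeded whole worms in all sorted groups and were lower at day 7 than at day 1. Between 2 groups of these bulk samples, fewer muscle cells and less RNA per muscle cell cannot be told apart.

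Levels can be compared between genes per length, as RPKM (CPM per kilobase of exon). In whole worms at day 1 in 21% O2, act-4 was highest with 1473 ± 293 RPKM, ahead of unc-27 (1044 ± 190 RPKM) and unc-15 (597 ± 118 RPKM; SD, n = 4 throughout). The next genes, lev-11 (505 ± 83.4 RPKM), unc-54 (495 ± 131 RPKM), mlc-2 (423 ± 104.2 RPKM) and pat-10 (369.5 ± 133 RPKM), each differed from its neighbour in this order by less than their SDs. Below them lay mup-2 (264 ± 40.7 RPKM), mlc-1 (95.98 ± 24.4 RPKM) and myo-3 (46.6 ± 6.67 RPKM). In day 1 neurons at 21% O2, act-4 was again highest, at 1232 ± 339.7 RPKM. The following 7 genes there had means between 114 and 197 RPKM, closer together than their SDs, which ran from 31.1 to 139 RPKM. Below them lay myo-3 (71.1 ± 78.9 RPKM) and mlc-1 (17.3 ± 9.12 RPKM), whose gap was smaller than the SD of myo-3. Only act-4 stood apart from its neighbour in this order by more than the SDs.

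**Figure D1:**
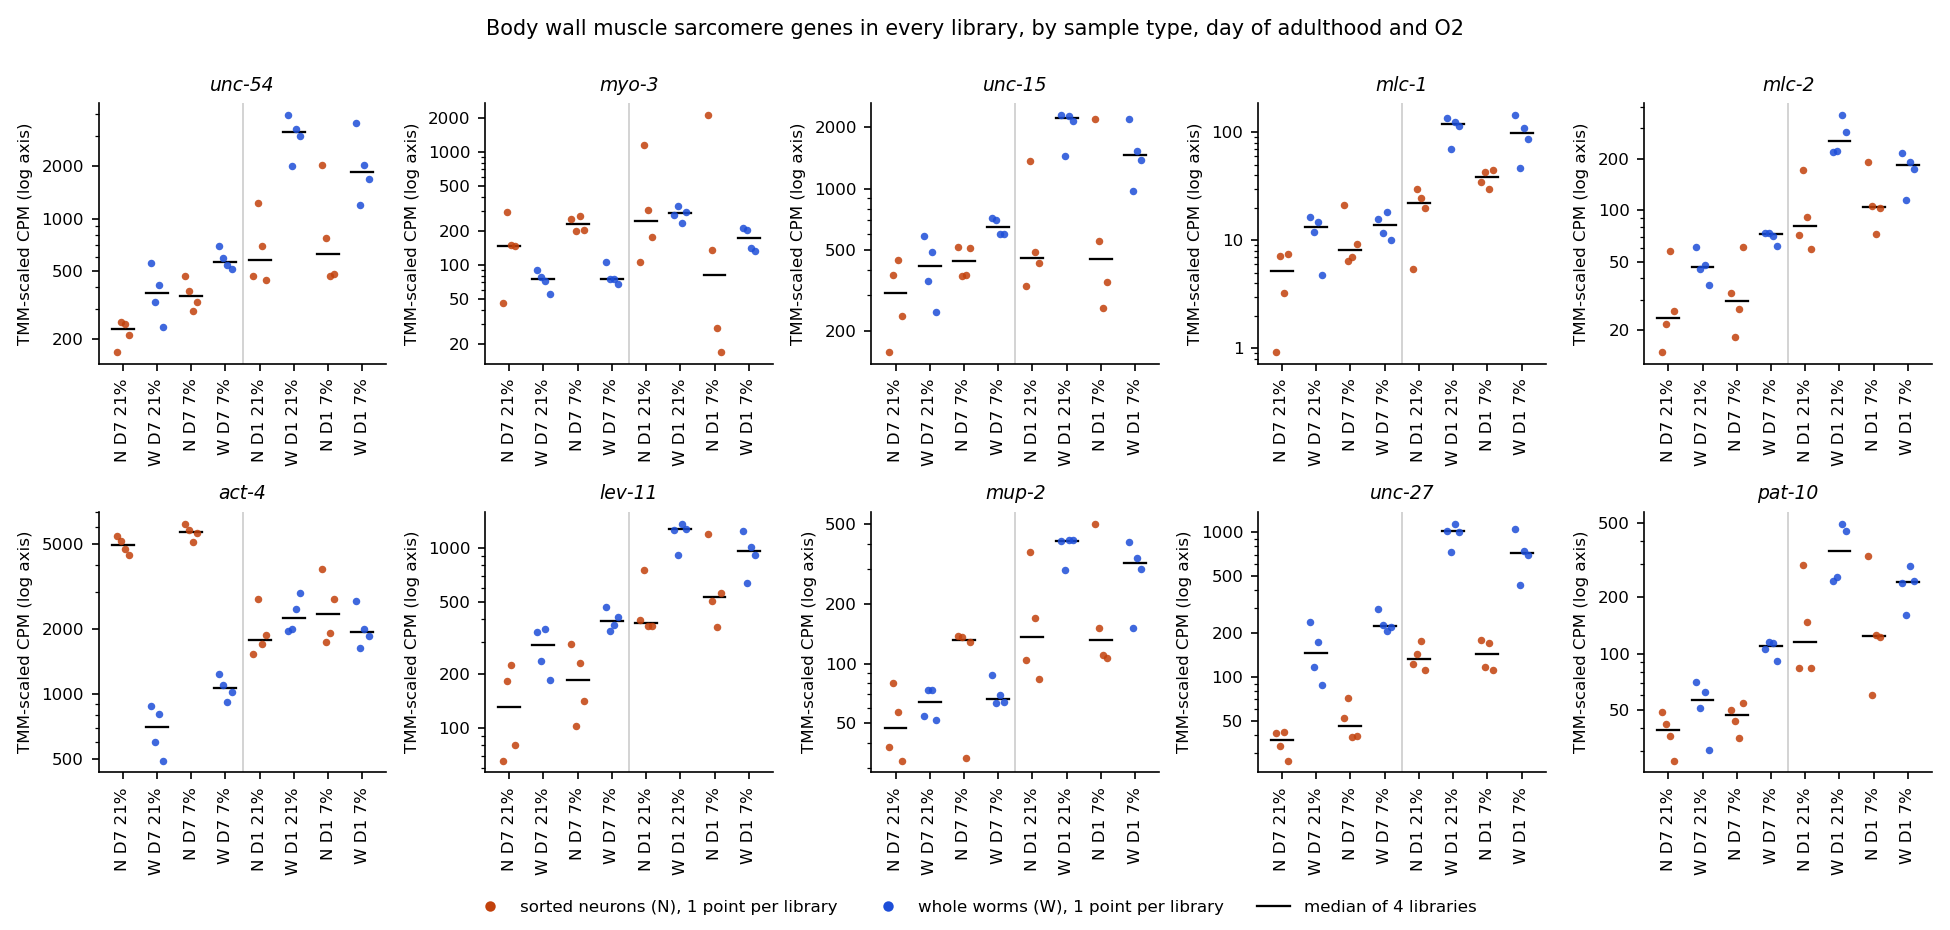
Level of each sarcomere gene in every library, as TMM-scaled CPM on a log axis, in sorted neurons (N) and whole worms (W) at day 7 (D7) and day 1 (D1) in 21% and 7% O2; each point is a library and each line the median of 4. In whole worms all 10 genes are lower at day 7 than at day 1 without overlap, while act-4 in day 7 neurons (4436 to 6201 CPM) lies above every other group.

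The age comparison in whole worms asks how muscle transcripts differ between day 7 and day 1 adults. Day 1 adults were collected from mex-3 RNAi bacteria and day 7 adults after a return to OP50. Age and food at collection therefore cannot be told apart, here or in the sorted neurons. Every one of the 10 genes fell, at both O2 levels, and for each gene the 4 day 7 libraries lay below the 4 day 1 libraries. Overlap between groups was counted for these genes only, here and below, and not over all genes. In 21% O2 the fall ran from 3.25-fold (act-4) to 8.89-fold (mlc-1), with a median log2 change of -2.50. In 7% O2 it ran from 1.897-fold (act-4) to 6.92-fold (mlc-1), with a median of -1.27. A gene was called changed at a Benjamini-Hochberg adjusted p under 0.1 in edgeR's quasi-likelihood test and a change of at least 1.5-fold. Of all genes tested, 10.7% were called lower at day 7 in 21% O2 and 8.36% in 7% O2, with a median log2 change of -0.01 and -0.02.

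The main heavy chain gene unc-54 showed the pattern clearly. It had 556, 327, 415 and 234.8 CPM in day 7 worms in 21% O2, against 3972, 2016, 3302 and 3001 CPM in day 1 worms. In 7% O2 the day 7 worms had 693, 593, 535 and 513 CPM, against 3564, 1201, 2036 and 1702 CPM at day 1. The log2 change was -2.94 ± 0.32 (SE, adjusted p = 4.44e-06, edgeR) in 21% O2 and -1.86 ± 0.30 (adjusted p = 0.000489) in 7% O2, and the age groups did not overlap at either O2 level. The minor heavy chain gene myo-3 fell by 1.89 ± 0.19 (adjusted p = 9.64e-07) in 21% O2 and by 1.08 ± 0.19 (adjusted p = 0.000557) in 7% O2 on the log2 scale. Its levels were 89.2, 77.4, 72.5 and 55.7 CPM in day 7 worms and 275, 334, 236 and 294 CPM in day 1 worms in 21% O2. Here too the ages did not overlap. With all 32 libraries in a single model, the calls of myo-3 at both O2 levels and of unc-15 and pat-10 in 7% O2 were lost.

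Transcripts of paramyosin, the core protein, fell as well. In 21% O2 unc-15 had 589, 352, 487 and 248 CPM at day 7, against 2302, 1446, 2284 and 2147 CPM at day 1 (log2 change -2.23 ± 0.25, edgeR adjusted p = 4.44e-06), and in 7% O2 its change was -1.21 ± 0.25 (adjusted p = 0.00245). The light chain gene mlc-1 showed the largest change of the 10 at both O2 levels. It had 16.5, 11.96, 14.8 and 4.78 CPM at day 7 and 135, 70.5, 124 and 114 CPM at day 1 in 21% O2 (log2 change -3.15 ± 0.37, adjusted p = 1.49e-05). Its day 7 value rests on few counts, 38 to 100 per library. With mlc-1 and mlc-2 counted as a single gene, the change was -2.62 (adjusted p = 1.59e-07) in 21% O2 and -1.68 (adjusted p = 3.40e-05) in 7% O2.

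Thin filament genes also fell. In 21% O2 the troponin genes changed by -2.69 ± 0.27 (pat-10), -2.60 ± 0.29 (unc-27) and -2.54 ± 0.24 (mup-2) on the log2 scale, and tropomyosin (lev-11) by -2.06 ± 0.22, all with an edgeR adjusted p of 5.50e-06 or below. The changes in 7% O2 were -1.13 ± 0.25 (pat-10), -1.60 ± 0.28 (unc-27), -2.06 ± 0.23 (mup-2) and -1.24 ± 0.21 (lev-11), with adjusted p-values up to 0.00577 (pat-10). The actin gene act-4 had the smallest change, and still fell without overlap. It had 882, 599, 814 and 493 CPM at day 7 and 1972, 2001, 2498 and 2962 CPM at day 1 in 21% O2.

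Other genes of the same structures, taken from lists of known muscle components, did not all pass the thresholds in aged whole worms. In 21% O2, 7 of 10 other thick filament and M-line genes, 9 of 13 other thin filament genes, 13 of 16 dense body and attachment genes, 10 of 15 genes of excitation and Ca2+ handling and 2 of 3 muscle transcription factors were called lower, and none was called higher. Of all genes, 10.7% were called lower in 21% O2 and 8.36% in 7% O2. In 7% O2 the counts in the same lists were 2 of 10, 6 of 13, 10 of 16, 3 of 15 and 1 of 3. Those with the smallest p were the essential light chain mlc-3 (-2.55 ± 0.21, edgeR adjusted p = 1.45e-07) and act-1 (-2.17 ± 0.20) in 21% O2, and act-1 (-1.68 ± 0.20) and calsequestrin (csq-1, -1.90 ± 0.25) in 7% O2. Of 6 pharyngeal muscle genes, 2 in 21% O2 and 0 in 7% O2 were called lower, with 1 at an unadjusted p under 0.05 in 7% O2. Their median changes were -0.57 and -0.59, against -2.50 and -1.27 for the 10 sarcomere genes. Of the 10 pan-neuronal genes, 2 were called lower in 21% O2 (10.7% of all genes) and 1 was called higher in 7% O2 (7.49% of all genes).

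**Figure D2:**
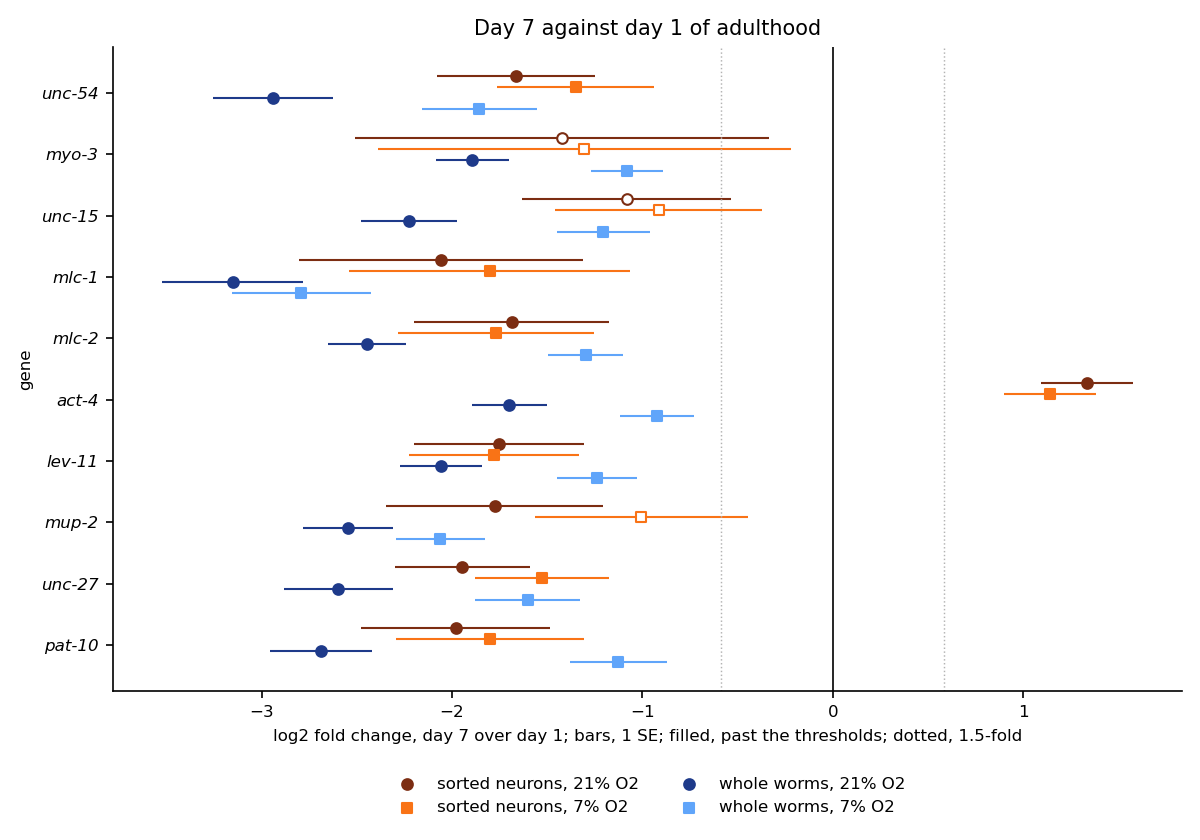
Log2 fold change of each sarcomere gene at day 7 over day 1 (edgeR, bars are 1 SE) in sorted neurons and whole worms in 21% and 7% O2; filled symbols passed the thresholds and dotted lines mark a 1.5-fold change. All symbols lie left of 0 except those of act-4 in neurons, at 1.34 and 1.14.

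The estimated fall with age was larger in 21% than in 7% O2 for all 10 genes, and the difference was tested as an interaction of age and O2 in whole worms. All 10 interaction terms were negative, with a median of -0.91 on the log2 scale, but 0 of 10 passed the thresholds of edgeR's test, against 0.211% of all genes. The largest were pat-10 (-1.56 ± 0.36) and mlc-2 (-1.15 ± 0.28), both with an adjusted p of 0.103. At an unadjusted p under 0.05 there were 8 of 10, and DESeq2 called 4. A replicate block in edgeR gave 7 calls (unc-54, myo-3, unc-15, unc-27, lev-11, pat-10 and mlc-2), and without a filter on low counts it called 5. The share of all genes given above belongs to the main fit, and none is set beside these other counts. They therefore cannot be read as particular to the members. In neurons the same interaction gave 0 of 10 by either tool, with 0 at an unadjusted p under 0.05 and 0.0597% of all genes called.

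The direct comparison of O2 levels asks whether the culture atmosphere changed these genes at a given age. In day 7 whole worms all 10 were lower in 21% O2, with log2 differences between -0.99 (pat-10) and -0.13 (myo-3) and a median of -0.58. None passed edgeR's thresholds, where 0.0551% of all genes did, although 6 of 10 had an unadjusted p under 0.05 and DESeq2 called 1. For 4 of them (unc-15, pat-10, act-4 and mlc-2) the groups did not overlap. Troponin C (pat-10), for example, had 70.7, 51.0, 62.7 and 30.5 CPM in 21% O2, against 106, 116, 114 and 91.9 CPM in 7% O2. No share of all genes is set beside the overlap or the counts at an unadjusted p, here or at day 1. They are descriptions. In day 1 whole worms the sign was opposite for all 10. The differences there ran from 0.14 (mlc-1) to 0.68 (myo-3), 0 of 10 were called by edgeR and 1 by DESeq2, 3 had an unadjusted p under 0.05, and 0.00918% of all genes were called. Without replicate 1 of the day 1 worms in 21% O2, edgeR called 2 (myo-3 and mlc-2), and without replicate 2 of those in 7% O2 it called 1 (myo-3).

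In neurons no member passed the thresholds between O2 levels. The log2 differences were negative for all 10 genes at day 7 (median -0.52) and at day 1 (median -0.39), with 0 of 10 called by edgeR or DESeq2 and 0 at an unadjusted p under 0.05. Of all genes, 0.154% were called at day 7 and 0.0939% at day 1. The day 1 median was 0.18 without replicate 1 of the day 1 neurons in 7% O2, a library described next, and -0.82 without replicate 2 of those in 21% O2. The spread limits this comparison: the SE of a log2 difference in neurons ran up to 1.07 (myo-3), and the biological coefficient of variation was 1.02 over the neuron libraries and 0.418 over the whole-worm libraries.

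**Figure D3:**
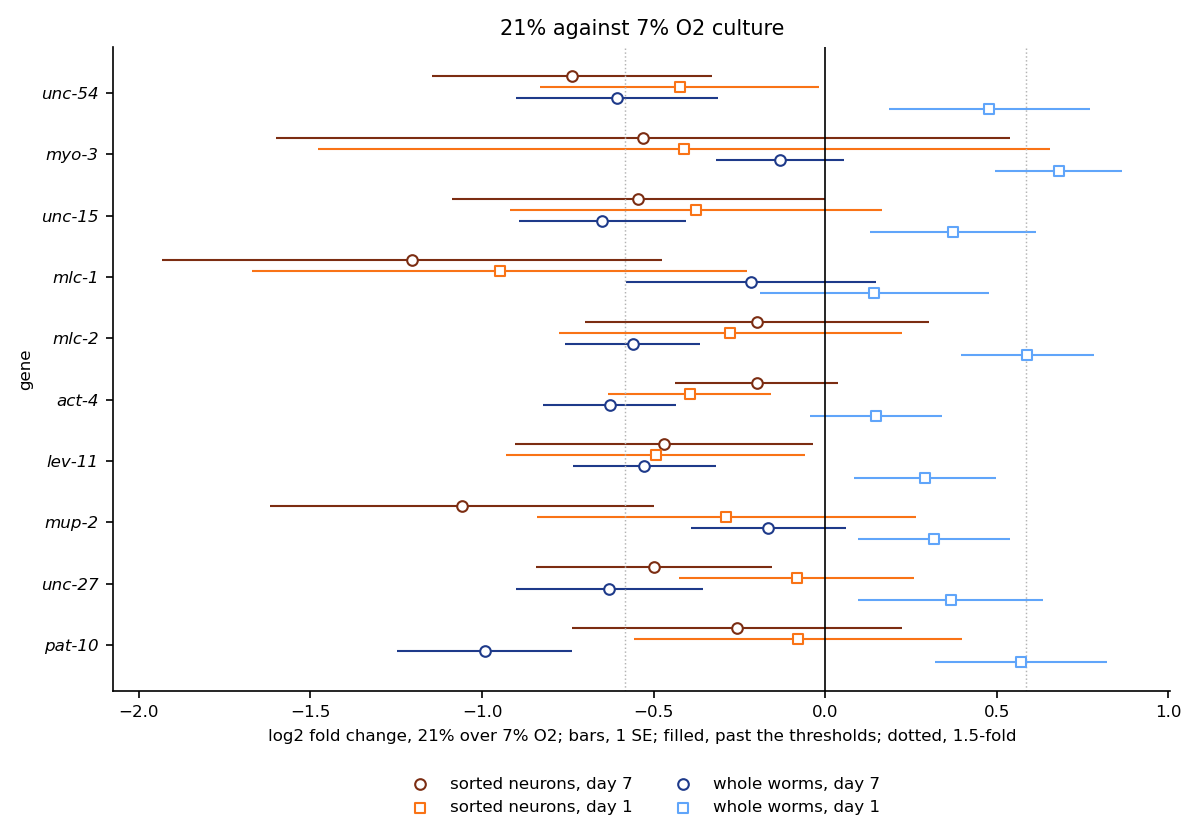
Log2 fold change of each sarcomere gene in 21% over 7% O2 (edgeR, bars are 1 SE) in sorted neurons and whole worms at day 7 and day 1; open symbols did not pass the thresholds and dotted lines mark a 1.5-fold change. No symbol is filled, and in whole worms the day 7 symbols lie left of 0 and the day 1 symbols right of it.

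Among the day 1 neuron samples, 2 libraries stood apart in the summed level of muscle genes. The 10 genes summed to 12612 CPM in replicate 1 of the 7% O2 group, against 3563 to 4679 CPM in its other 3 replicates. In 21% O2 they summed to 8257 CPM in replicate 2, against 3231 to 4175 CPM in the other 3. Both libraries also had the highest sums of their group for the other thick filament genes (15127 and 7453 CPM), the dense body genes (8439 and 4841 CPM) and the muscle transcription factors (132 and 95 CPM), and the lowest for the genes of O2-sensing neurons (2756 and 6209 CPM). In the first, myo-3 had 2110.1 CPM, against 135, 27.9 and 16.97 CPM in the other 3, so that the highest and lowest of this group differed 124-fold, and in the second it had 1146 CPM, against 106, 308 and 176 CPM. Not every member stood apart. In the first, unc-27 had 181 CPM, against 118, 173 and 111.9 CPM, and mlc-1 had 34.6 CPM, against 42.9, 29.7 and 45.1 CPM. In the second, unc-27 had 144 CPM, against 122.3, 178 and 112.05 CPM. Both thick filament sums exceeded the highest of any whole-worm library, 4628 CPM. The comparisons of members, lists and ratios in day 1 neurons were therefore repeated without the library of the O2 level concerned. These libraries were set aside for high sums of the same genes. Lower levels in day 1 neurons without them are therefore partly built in.

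Set against whole worms, day 1 neurons in 21% O2 held less of most sarcomere transcripts. Of the 10 genes, 8 were called lower and 0 higher, where 22.8% of all genes were called lower, and the median log2 difference was -1.26. Troponin I (unc-27) differed most. It had 122.3, 144, 178 and 112.05 CPM in neurons, against 1014, 726, 1147 and 1009 CPM in whole worms, which is 6.38-fold lower (log2 -2.67 ± 0.21, edgeR adjusted p = 1.67e-06). The heavy chain unc-54 was 3.96-fold lower (-1.99 ± 0.34, adjusted p = 0.000620), with 464, 1227, 691 and 438 CPM in neurons and 3972, 2016, 3302 and 3001 CPM in whole worms, and mlc-1 was 5.04-fold lower. For mup-2 (-0.96 ± 0.40, adjusted p = 0.0681) and pat-10 (-1.09 ± 0.42, adjusted p = 0.0503) the groups overlapped, and both calls were lost without replicate 3 of the whole worms, that of mup-2 also without replicate 1 of the neurons. The 2 members not called were myo-3 (0.75 ± 0.59) and act-4 (-0.11 ± 0.23). Without replicate 2 of the neurons the count was again 8 and the median -1.69. In that fit 2982 of 11302 genes were called lower, and the median of all genes was -0.08. With all libraries, size factors by DESeq2's method moved the median of all genes to -0.12, against 0.02, and left the count at 8.

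In 7% O2 the same comparison at day 1 turned on the library that stood apart. With all libraries, 2 of 10 genes were called lower, unc-27 (-2.23 ± 0.32, edgeR adjusted p = 0.000375) and mlc-1 (-1.26 ± 0.39, adjusted p = 0.0253), a share close to the 19.5% of all genes. With mlc-1 and mlc-2 counted as a single gene, the light chain call was lost (adjusted p = 0.107). With the replicate number as a block the count was 4. Without replicate 1 of the neurons, 9 of 10 were called lower, and the median difference was -1.21 rather than -0.46. In that fit 2760 of 10450 genes were called lower, and the median of all genes was -0.21. The sign of myo-3 turned as well, to -1.47 (adjusted p = 0.0834) without that library, from 1.81 ± 1.21 with it.

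At day 7 members were called in both directions. In 21% O2, 3 of 10 genes were called lower in neurons than in whole worms (unc-54, unc-27 and lev-11; 16.8% of all genes) and 2 higher (act-4 and myo-3; 23.5% of all genes). In 7% O2, 5 were called lower (unc-54, unc-27, lev-11, pat-10 and mlc-2; 21.1% of all genes) and the same 2 higher (24.7% of all genes). Troponin I was lower without overlap at both O2 levels, with 40.8, 33.2, 41.9 and 26.5 CPM in neurons, against 238, 118, 174 and 87.5 CPM in whole worms, in 21% O2 (log2 -2.09 ± 0.34, edgeR adjusted p = 0.00113). In 7% O2 it was 4.78-fold lower (-2.26 ± 0.24, adjusted p = 2.59e-05). The call for lev-11 in 21% O2 (-0.99 ± 0.39, adjusted p = 0.0774) was lost when any of 5 single libraries was left out. That of unc-54 was lost without replicate 1 of the neurons or of the whole worms, and 2 genes in all were called without that whole-worm library, against 3 without replicate 1 of the neurons or replicate 2 or 3 of the whole worms. The unc-54 call in 7% O2 was lost without replicate 3 of the neurons or replicate 1 of the whole worms. In 7% O2 unc-15 had an adjusted p of 0.0105 but a log2 difference of -0.58, just short of 1.5-fold.

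The actin gene act-4 was called higher in neurons at both O2 levels. In day 7 neurons it had 5411, 5139.7, 4709 and 4436 CPM in 21% O2, against 882, 599, 814 and 493 CPM in whole worms, which is 7.18-fold higher (log2 2.84 ± 0.20, edgeR adjusted p = 5.25e-06). In 7% O2 the neurons had 6201, 5773, 5083 and 5586 CPM, against 1247, 1104, 925 and 1025 CPM in whole worms (2.38 ± 0.12, adjusted p = 3.09e-07). At day 1 neurons and whole worms overlapped at both O2 levels. Because the 4 muscle-type actins share most of their sequence, they were also summed: neurons were higher by 2.5005 (adjusted p = 2.15e-06) in 21% O2 and by 2.24 (adjusted p = 3.05e-07) in 7% O2 at day 7. The share of act-4 in that sum was 78.7% to 86.2% in day 7 neurons and 57.8% to 78.6% in day 7 worms.

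The minor heavy chain myo-3 was the other gene higher in day 7 neurons. It had 252, 197, 269 and 204 CPM in neurons in 7% O2, against 105, 75.3, 74.3 and 67.5 CPM in whole worms (2.82-fold higher, log2 1.497 ± 0.20, edgeR adjusted p = 0.000129), without overlap. In 21% O2 the neurons had 46.0, 296, 148 and 148 CPM, against 89.2, 77.4, 72.5 and 55.7 CPM in whole worms (1.14 ± 0.45, adjusted p = 0.0746). There the groups overlapped and the call was lost without any of 6 single libraries and with the replicate number as a block, and it was lost at both O2 levels when all 32 libraries were fitted in a single model. In 21% O2 the other thick filament genes unc-15 (-0.44), mlc-1 (-1.33) and mlc-2 (-0.64) were not called.

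**Figure D4:**
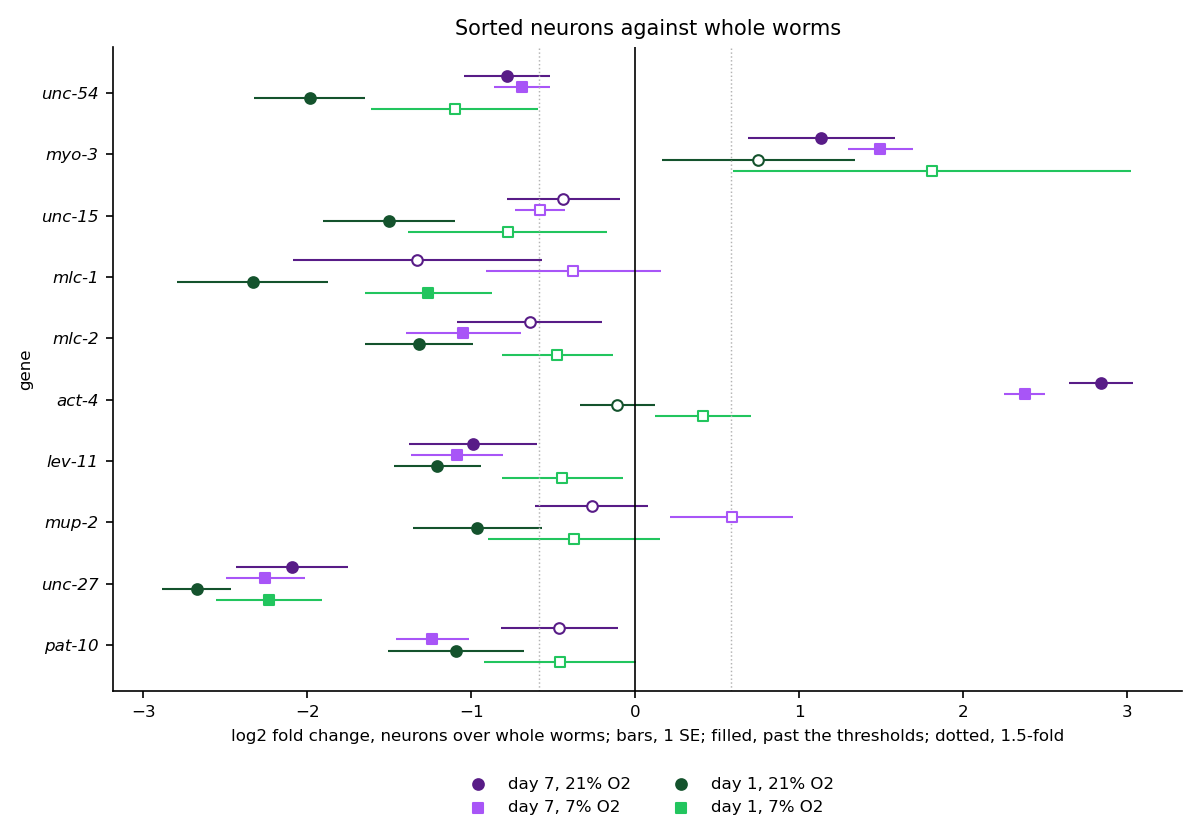
Log2 fold change of each sarcomere gene in sorted neurons over whole worms (edgeR, bars are 1 SE) at day 7 and day 1 in 21% and 7% O2; filled symbols passed the thresholds and dotted lines mark a 1.5-fold change. The symbols of unc-27 lie between -2.67 and -2.09 in all 4 comparisons, and those of act-4 lie at 2.84 and 2.38 at day 7 and at -0.11 and 0.41 at day 1.

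Within the sorted samples, age was compared directly, and these comparisons share their libraries with those above. In 21% O2, 7 of 10 genes were called lower in day 7 than in day 1 neurons (18% of all genes) and 1, act-4, was called higher (12.1% of all genes). In 7% O2, 6 were called lower (21.0% of all genes) and again act-4 higher (15.4% of all genes). The genes lower at both O2 levels were unc-54, unc-27, lev-11, pat-10, mlc-1 and mlc-2, and mup-2 was called in 21% O2 only (-1.78 ± 0.57, edgeR adjusted p = 0.0288). Whether its change differed between O2 levels was tested, with an interaction of -0.77 ± 0.78 (adjusted p = 0.897). The median log2 change over the 10 genes was -1.72 in 21% O2 and -1.44 in 7% O2, and over all genes tested -0.20 and -0.28. With size factors by DESeq2's method the median of all genes moved to 0.09 and -0.06. Without replicate 2 of the day 1 neurons in 21% O2, 5 genes were called lower and 1 higher, with a median of -1.27. In that fit 1926 of 12296 genes were called lower and 1359 higher, with a median of -0.12. Without replicate 1 of those in 7% O2, 5 genes were called lower and 2 higher, with a median of -0.90. There 2489 of 12383 genes were called lower and 2063 higher, with a median of -0.07.

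The mlc-1 calls were the least stable, lost under 7 of 18 alternatives in 21% O2 (4 of them single libraries) and 10 of 18 in 7% O2 (5 of them single libraries, the others RLE size factors, no filter, the replicate block, no F31C3.14 and an adjusted p under 0.05), and that of mup-2 without replicate 2 of the day 1 or replicate 4 of the day 7 neurons.

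Troponin I did not overlap between ages. In 21% O2 unc-27 had 40.8, 33.2, 41.9 and 26.5 CPM in day 7 neurons, against 122.3, 144, 178 and 112.05 CPM in day 1 neurons (-1.95 ± 0.36, edgeR adjusted p = 0.000428). In 7% O2 the day 7 neurons had 52.2, 71.2, 38.8 and 39.3 CPM, against 181, 118, 173 and 111.9 CPM at day 1 (-1.53 ± 0.35, adjusted p = 0.00253). The heavy chain unc-54 changed by -1.67 ± 0.42 (adjusted p = 0.00624) and -1.35 ± 0.41 (adjusted p = 0.0181), and its call in 7% O2 was lost without replicate 1 of the day 1 neurons (adjusted p = 0.150). Without that library unc-15 had a log2 change of 0.20, against -0.91 with it, and was called in neither case, and myo-3 turned from -1.31 ± 1.08 to 1.95 (adjusted p = 0.0574) and was called higher.

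In contrast, act-4 rose in aged neurons. It had 5411, 5139.7, 4709 and 4436 CPM in day 7 neurons and 1543, 2763, 1711 and 1875 CPM in day 1 neurons in 21% O2, which is 2.53-fold higher (1.34 ± 0.24, edgeR adjusted p = 0.000394). In 7% O2 it was 2.21-fold higher (1.14 ± 0.24, adjusted p = 0.00124), with no overlap at either O2 level. The change of act-4 with age thus had opposite signs in neurons and whole worms. The interaction of sample type and age was 3.08 ± 0.31 (adjusted p = 1.71e-08) in 21% O2 and 2.07 ± 0.31 (adjusted p = 5.98e-06) in 7% O2. In 21% O2, 2 of 10 genes passed this test, act-4 and unc-54 (1.32 ± 0.52, adjusted p = 0.0821), and in 7% O2 only act-4, where 10.6% and 13.9% of all genes were called in that direction. The unc-54 call was lost when any of 12 single libraries was left out, and the counts were 4 without replicate 2 of the day 1 neurons in 21% O2 and 5 without replicate 1 of those in 7% O2. No share of all genes is set beside these last counts. The libraries left out there stood apart for high sums of the same genes, so higher interaction terms without them are partly built in.

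Markers of other tissues moved with age in the sorted samples too, in both directions. The 8 intestinal genes summed to medians of 6592 and 9244 CPM in day 7 neurons (21% and 7% O2), against 1356 and 1220 CPM in day 1 neurons, and 3 and 4 of them were called higher (3 and 5 without the libraries that stood apart). The 8 epidermal genes summed to 416 and 521 CPM at day 7, against 106 and 97.4 CPM at day 1, with 2 and 3 called higher. Of all genes, 12.1% and 15.4% were called higher. Without the libraries that stood apart, only 4 epidermal genes were tested at each O2 level, and 1 was called lower at each. Of 7 intestinal genes tested there, 1 was called lower in 21% O2 and 0 in 7% O2. The pharyngeal muscle genes summed to 47.5 and 26.2 CPM at day 7, against 75.0 and 70.6 CPM at day 1, and ceh-22, a transcription factor of that muscle, had at most 3.04 CPM in any sorted library. The germline genes summed to medians of 385 and 476 CPM at day 7, against 539 and 870 CPM at day 1. The glia genes summed to 21.5 and 12.2 CPM at day 7, against 61.2 and 62.6 CPM at day 1. The coelomocyte genes summed to 3.13 and 1.41 CPM at day 7, against 2.26 and 3.73 CPM at day 1. Of the pan-neuronal genes, 9 of 10 were called lower at day 7 at each O2 level. The 9 sarcomere genes other than act-4 summed to 582 to 1290 CPM in day 7 neurons and 1688 to 5495 CPM in day 1 neurons in 21% O2. The part of these shifts in cell makeup in the changes of the sarcomere genes was not tested.

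The neighbouring muscle lists differed among themselves in the sorted samples. Day 1 neurons in 21% O2 had more egl-19, the L-type Ca2+ channel subunit (3.39 ± 0.22, edgeR adjusted p = 4.32e-07), and more stn-1, a syntrophin (4.08 ± 0.30), than whole worms, and less twitchin (unc-22, -2.72 ± 0.28) and troponin T tnt-2 (-2.39 ± 0.24). The 15 genes of excitation and Ca2+ handling, several of which neurons use as well, had 6 called higher and 4 lower there, and the 16 dense body and attachment genes 6 and 3, shares near those of all genes (30% higher and 22.8% lower). Without replicate 2 of the neurons these counts were 6 and 5 and 4 and 5. The 4 genes named here were called in the same direction. The other 10 thick filament genes had 2 called higher and 5 lower without it, and 2 called lower with it. Of 11302 genes tested without it, 3255 were called higher and 2982 lower. At day 7 in 21% O2 no dense body gene was called lower in neurons and 9 were called higher, where 23.5% of all genes were, among them talin (tln-1, 3.45 ± 0.20) and perlecan (unc-52, 3.60 ± 0.25). With age unc-52 rose in neurons by 2.12 ± 0.30 in 21% O2 and 2.90 ± 0.31 in 7% O2, and so did the actin-depolymerizing factor unc-60 (1.79 ± 0.23 and 2.12 ± 0.23), whereas tnt-2 fell by 3.08 ± 0.52 in 21% O2. These changes were called in the same direction without the libraries that stood apart, with 2.34 (21% O2) and 2.75 (7% O2) for unc-52. The stn-1 exons overlap another gene over 14.0% of their length.

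Ratios of 2 genes within a library do not depend on its scaling. They were compared over 4 against 4 libraries by exact permutation tests, two-sided, for 3 pairs in 8 comparisons. The smallest p this design allows is 0.0286, and its adjusted value over the 24 tests was 0.0686 for the 10 comparisons that reached it. The unc-54 to myo-3 count ratio in 7% O2 at day 7 was 1.85, 1.94, 1.08 and 1.60 in neurons, against 6.56, 7.87, 7.20 and 7.59 in whole worms (mean log2 ratio lower by 2.21, exact permutation p = 0.0286). At day 7 in 21% O2 the log2 ratio differed by -1.60 and at day 1 in 21% O2 by -2.22, both without overlap (exact permutation p = 0.0286). At day 1 in 7% O2 the neurons ranged from 0.967 to 28.3 and overlapped the whole worms, which ranged from 5.87 to 16.9 (exact permutation p = 0.629). Without the library that stood apart the difference was -1.86 in 21% O2, without overlap, and 0.25 in 7% O2, with overlap. With 3 against 4 libraries the smallest exact permutation p is 0.0571.

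The ratio of troponin I to troponin T transcripts was lower in neurons in all 4 comparisons. In 21% O2 at day 1 the unc-27 to mup-2 ratio was 1.17, 0.395, 1.05 and 1.34 in neurons, against 2.45, 2.45, 2.74 and 2.43 in whole worms. The difference in mean log2 ratio was -1.48 there, -1.59 at day 1 in 7% O2, -1.67 at day 7 in 21% O2 and -2.69 at day 7 in 7% O2 (exact permutation p = 0.0286 each). Without the libraries that stood apart it was -1.09 at day 1 in 21% O2 and -1.19 at day 1 in 7% O2, both without overlap. The 2 day 1 neuron libraries that stood apart had the lowest values of their groups, 0.395 and 0.358, and also the lowest unc-54 to myo-3 ratios, 1.07 and 0.967. All 4 values lie below those of every whole-worm library.

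The ratio of paramyosin to MHC B transcripts was higher in aged whole worms. The unc-15 to unc-54 ratio was 1.06, 1.08, 1.17 and 1.06 in day 7 worms, against 0.580, 0.718, 0.692 and 0.716 in day 1 worms, in 21% O2 (mean log2 ratio higher by 0.69, exact permutation p = 0.0286), and it was higher by 0.60 without overlap in 7% O2. In neurons the difference was 0.59 in 21% O2 and 0.69 in 7% O2, with overlap (exact permutation p = 0.114 and 0.0571), and without the libraries that stood apart it was 0.71 with overlap and 0.87 without overlap. The unc-54 to myo-3 ratio differed by -1.08 in 21% O2 and -0.68 in 7% O2 in whole worms, where the ages overlapped (exact permutation p = 0.0571 and 0.143).

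**Figure D5:**
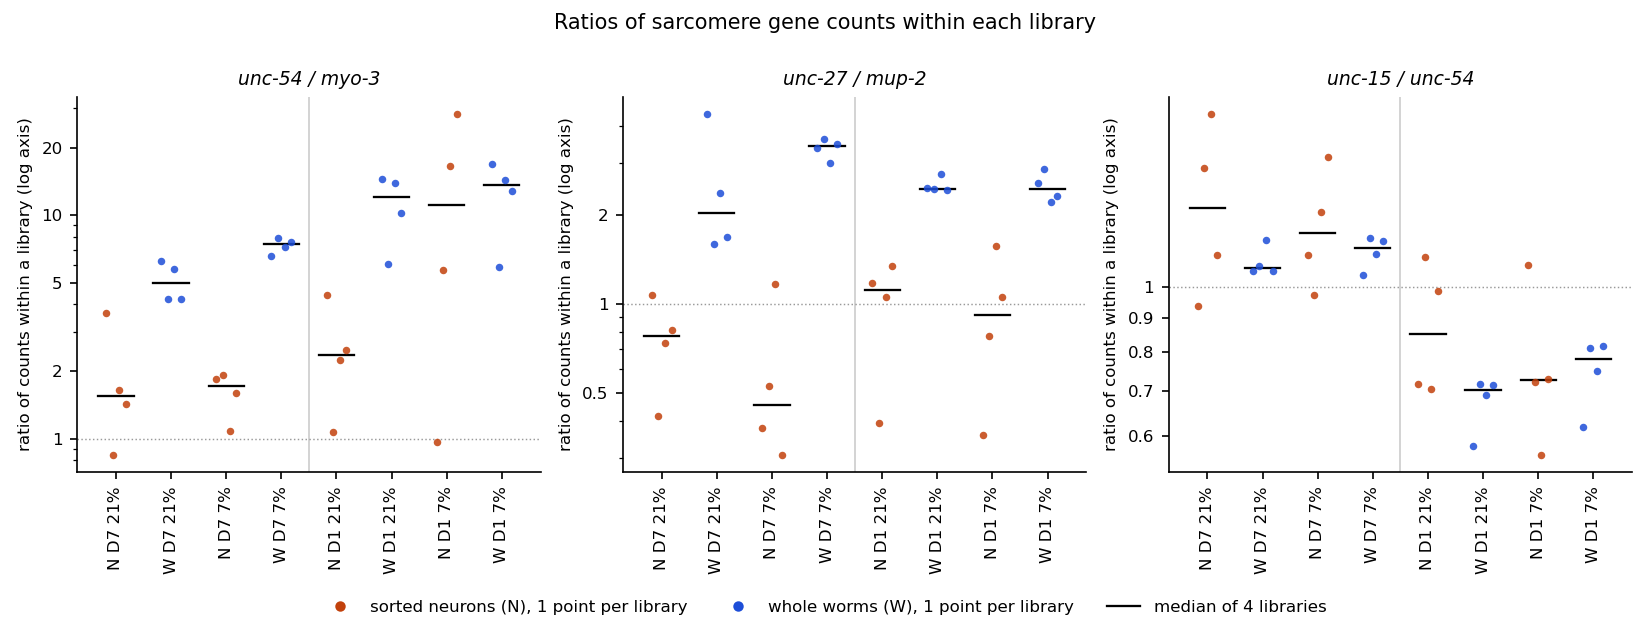
Ratio of counts of unc-54 to myo-3, unc-27 to mup-2 and unc-15 to unc-54 in every library, on log axes, in sorted neurons (N) and whole worms (W) at day 7 and day 1 in 21% and 7% O2; each point is a library, each black line the median of 4 and the dotted line a ratio of 1. The troponin ratio lies below that of whole worms in all 16 neuron libraries, and unc-15 to unc-54 lies above 1 in all 8 day 7 whole-worm libraries.

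Likeness to the 10 genes was measured as the root mean square difference, on the log2 scale after adding 1 CPM, between a gene's centred profile over 16 libraries and the mean centred profile of the members. In whole worms the closest members were unc-27, unc-15 and mlc-2 (0.16 each), and the closest other genes were F46H5.3 (0.14), T23E7.2 (0.20), the essential light chain mlc-3 (0.21), the type IV collagen emb-9 (0.26) and C46G7.2 (0.26), of 10894 genes. Among the members mlc-1 was the farthest (0.54, rank 130). In neurons the closest members were unc-54 (0.20) and unc-15 (0.34), ranked 1 and 3 of 11720 genes. The closest other genes there were the calponin-related cpn-3 (0.33) and unc-87 (0.35), which bind actin, Y51A2D.14 (0.43), the aspartyl protease asp-1 (0.44) and the DnaJ-domain gene dnj-8 (0.48). There myo-3 ranked 5962 (1.32) and act-4 ranked 5121 (1.25). Each member is itself part of the mean profile it is set against, which brings members closer. The profiles share libraries and depth, and these values are a description.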

How the data were processed

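RNA was measured in 32 libraries from 16 neuron and 16 whole-worm samples. The deposited values are whole-number counts of fragments per gene, not normalized. According to the submitters' notes and the study's methods, the authors trimmed reads with cutadapt 1.9, aligned them to WBcel235 with STAR 2.5.2b, and counted fragments on exons without strand with featureCounts 1.5.1 after removing ribosomal RNA genes. No per-sample column was left unmapped (0).

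Counts were analysed in R 4.3.3 with edgeR 4.0.16 (limma 3.58.1): filterByExpr with a minimum count of 10, TMM scaling, and two-sided quasi-likelihood F tests with robust dispersions. Calls needed a p under 0.1 after Benjamini-Hochberg adjustment over all genes tested, and at least a 1.5-fold change. The SE was taken as |log2 change| over the root of F. Neurons and whole worms were compared on the 8 libraries of 2 groups, ages and O2 levels on the 16 libraries of neurons or of whole worms, and sample type by age on all 32. Printed CPM and RPKM use TMM factors of all 32 libraries and exon lengths of the Ensembl annotation of WBcel235. Ratios were tested on log2 of counts after adding 1 to each.

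All 10 members were tested in every comparison, and the text names a part of them. Of the other muscle lists, at most the 2 higher and 2 lower genes with the smallest p are named for a comparison, and a part of those is given. The closest 5 genes by profile are named for each sample type. Members and lists were chosen with earlier results of these data known. Alternatives were DESeq2 1.42.0, its size factors (RLE) in edgeR, no filter, a floor of 1 CPM throughout at least 1 group, no F31C3.14, only the 2 groups compared, all 32 libraries together, the replicate number as a block, no fold threshold, an adjusted p under 0.05, other added counts for ratios, and each library left out in turn. Counting near-identical genes as a single gene, and repeating list and ratio results without 2 day 1 neuron libraries, were chosen after the data had been seen. The edgeR test was tested on simulated data. No sequences were printed because no sequence tables were used here.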

Additional observations from a re-analysis of the deposited data

Results flagged for a closer look

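Of 80 groups of 4 libraries (10 genes in 8 groups), 4 held a library far from the other 3, by a gap to its neighbour that passed Dixon's 95% limit. Chance alone would flag about 1 in 20 such groups. Tropomyosin (lev-11) was at 750 CPM in replicate 2 of the day 1 neurons in 21% O2, above the other 3. Troponin T (mup-2) was at 33.4 CPM in replicate 3 of the day 7 neurons in 7% O2, below the other 3, and at 297 CPM in replicate 2 of the day 1 whole worms in 21% O2, also below the others. The same whole-worm library had 1446 CPM of unc-15, the lowest of its group.

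The change with age differed between neurons and whole worms, by the interaction in edgeR's test, for act-4 (3.08 in 21% O2 and 2.07 in 7% O2 on the log2 scale) and for unc-54 in 21% O2 (1.32). For act-4 the sign itself was opposite, while unc-54 fell in both sample types, with a smaller estimated fall in neurons. The unc-54 call in 21% O2 (edgeR adjusted p = 0.0821) was lost under 13 of 24 alternatives. In 7% O2 the unc-54 interaction was 0.51 (edgeR adjusted p = 0.526).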

How the results depend on the processing

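The count of called members kept within 1.5 times its reported value in 288 of 328 combinations of comparison and alternative. The whole-worm interaction of age and O2 gave, against 0 calls, 2 with RLE size factors, 5 without a filter, 2 with the 1 CPM minimum and 4 with DESeq2. Over all genes, RLE size factors gave 44 calls in that interaction, against 23. The O2 comparison of whole worms gave 3 calls at day 1 and 2 at day 7 without a filter and 1 each with DESeq2. Neurons against whole worms at day 1 in 7% O2 gave 1 call with near-identical genes counted together, an alternative chosen after seeing the data, and 4 with all 32 libraries together. An adjusted p under 0.05 left 3 calls of 5 for neurons against whole worms at day 7 in 21% O2 and 1 of 2 for the interaction of sample type and age in 21% O2. The cause was not tested.

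Leaving out each library in turn gave, for neurons against whole worms, 6 to 8 calls at day 1 and 2 to 5 at day 7 in 21% O2, and 2 to 9 and 6 to 8 in 7% O2. The range was 6 to 8 for age in neurons at each O2 level, 10 to 10 for age in whole worms at each, 0 to 0 for O2 in neurons at each age and for their interaction of age and O2, 0 to 2 for O2 in day 1 worms, 0 to 0 in day 7 worms, 0 to 2 for the whole-worm interaction, and 1 to 4 and 1 to 5 for the interaction of sample type and age in 21% and 7% O2. The 2 calls of the whole-worm interaction appeared without replicate 1 of the day 1 or of the day 7 worms in 21% O2, or without replicate 2 of the day 1 worms in 7% O2. Without replicate 1 of the day 1 neurons in 7% O2, myo-3 reversed in 3 comparisons in 7% O2. Over the left-out libraries it ranged from -1.47 to 2.21 against whole worms at day 1, from -1.71 to 1.95 with age in neurons and from -0.62 to 3.04 in the interaction of sample type and age (edgeR adjusted p = 0.00529 for the last).

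Each whole-worm sample shared its suspension with a sorted sample, but no source used here ties equal numbers to the same suspension. Correlations of same-numbered samples ran from -0.17 to 0.44, and in no comparison were all 4 over 0.1, the level set for pairing, although 3 of 4 were in day 1 worms between O2 levels. Pairing is therefore not established, and it is not excluded. A replicate block gave 4 calls for neurons against whole worms at day 1 in 7% O2, 1 for O2 in day 1 worms and 7 for the whole-worm interaction of age and O2, and left the other counts within 1.5 times. Every sample correlated best with its own number in neurons against whole worms at day 1 in 21% O2 and in day 7 worms between O2 levels. Low counts limit mlc-1, which had 7 to 71 counts in day 7 neurons in 21% O2.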
